A study of Mus musculus with 6 samples.

Results

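The genes described here are 10 receptors and bridging molecules of efferocytosis, the uptake of apoptotic cells by macrophages. They were chosen by name (Mertk, Axl, Tyro3, Gas6, Pros1, Timd4, Stab1, Itgav, Mfge8 and Trem2), and 9 of them were among the 19386 genes of the deposited expression table, in which Timd4 had no row. An adjusted p-value was given for 8 of the 9. RNA was sequenced from macrophages grown from the bone marrow of wild-type C57BL/6 mice, 3 libraries from mice exposed to room air and 3 from mice exposed to cigarette smoke. All cultures received 10% L929 supernatant, a source of the macrophage growth factor CSF1, and were harvested on day 11. The groups differ in what the mice inhaled, so the question is whether these genes differ after marrow cells have matured in a dish. Dose and length of the exposure are not given in the sources used here. No label says that each library came from a different mouse, so the spread between libraries may be partly technical. The splicing p-values computed here measure that spread, while those of expression rest on the authors' larger fit to 24 libraries.

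An apoptotic cell exposes phosphatidylserine on its surface, and macrophages recognise this lipid either directly or through a soluble protein that binds the lipid at one end and a receptor at the other. Mertk, Axl and Tyro3 form the TAM family of receptor tyrosine kinases, whose ligands Gas6 and protein S (Pros1) are such bridges. Mfge8 bridges phosphatidylserine to integrins that contain the alpha-v subunit (Itgav). Timd4 and stabilin-1 (Stab1) bind the lipid directly, and Trem2 is a receptor for lipids and apoptotic cells that signals through the adaptor DAP12, the product of Tyrobp.

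Expression was given as 1 mean of size-factor-normalized counts per group, so no value of a single library and no depth per library was available for expression. For splicing, each library had its own inclusion level in percent. Of 10376 splicing events, between 1 and 398 had no value in a room air library, while in the smoke group replicate 1 lacked a value for 4169, replicate 2 for 189 and replicate 3 for 50. Smoke replicate 1 therefore stands apart in its missing values, and the depth behind single levels is unknown. All 10 macrophage markers looked at were listed, with a summed mean of 57552 normalized counts in room air and 58530 after smoke. Lyz2 and Csf1r made up much of that sum, none of the 10 passed an adjusted p of 0.05, and single markers stood on both sides: Mrc1 at 3601 and 2196 (adjusted p 0.0836, DESeq2), Fcgr1 at 536.6 and 761.6 and Msr1 at 784.9 and 1143. Markers of other cells were low: the sum over the 5 of 10 neutrophil genes that were listed was 14.6 in room air and 21.0 after smoke, with S100a9, Ly6g, Elane, Mpo and Camp not listed. The sum over the 4 of 8 B cell genes listed was 6.68 in room air and 4.14 after smoke, and only Klf1 of 7 erythroid genes was listed. The sum over the 5 of 6 osteoclast genes listed was 40.3 and 66.2, with Dcstamp at 15.5 and 37.6 (adjusted p 0.0997, DESeq2), and that over the 3 of 6 dendritic cell genes listed was 1.29 and 1.02. The part of these markers in the results was not tested.

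Of the 8 members tested in the authors' deposited table, Stab1 and Itgav were lower after cigarette smoke, and the others did not pass an adjusted p of 0.05. Over all 12082 genes tested, 3.53% were lower, 4.15% were higher and 7.69% differed in either direction at that threshold. The median log2 fold change of the 8 members was -0.072, beside -0.0029 over all genes tested, and 5 of the 8 were below 0, as were 50.3% of all genes.

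Stab1 (ENSMUSG00000042286.13, chr14:31139013-31168641, minus strand, GRCm38) encodes a large scavenger receptor of tissue macrophages and sinusoidal endothelium. Its mean in the authors' deposited table was 2783 normalized counts in room air and 1827 after cigarette smoke. The log2 fold change was -0.61 (SE 0.16, adjusted p 0.00561, DESeq2), a level 0.656 times that of room air with a 95% interval of 0.529 to 0.813. The fold changes of 12071 tested genes rose with GC content (Spearman correlation 0.492 across genes, which are not independent). They fell with transcript length (Spearman correlation -0.445), and Stab1 has a long transcript of 7999 bases with 57.3% GC. With that trend removed, its log2 fold change was -0.60 and its adjusted p 0.0210, where 1.27% of all genes passed. Its last 112 bases overlap Nt5dc2 on the opposite strand, a gene that stood at 552.0 normalized counts in room air and 695.0 after smoke. Whether the counting used strand is not given in the sources used here.

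Itgav (ENSMUSG00000027087.11, chr2:83724397-83806916, plus strand) encodes the alpha-v integrin subunit that pairs with several beta subunits. Its mean in the authors' deposited table was 993.0 normalized counts in room air and 710.0 after smoke, a log2 fold change of -0.49 (SE 0.14, adjusted p 0.0163, DESeq2). The level after smoke was 0.712 times that of room air, with a 95% interval of 0.586 to 0.865. Itgav has a transcript of 7054 bases with 43.5% GC, and with the trend removed the log2 fold change was -0.19 and the adjusted p 0.718. The call for Itgav therefore did not hold under that alternative. The beta subunits on the uptake receptor list that pair with it, Itgb1, Itgb3 and Itgb5, did not pass the threshold. Itgb1 stood at 3312 normalized counts in room air and 2704 after smoke, a change of -0.29 on the log2 scale (SE 0.11, adjusted p 0.0623, DESeq2), and at -0.15 with the trend removed. For Itgb3 the authors' deposited table gave a log2 fold change of -0.35 (SE 0.35). For Itgb5 it gave 0.027 (SE 0.17), which turned to -0.13 with the trend removed.

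Mfge8 (ENSMUSG00000030605.15, chr7:79133768-79149060, minus strand), the bridge to alpha-v integrins, had a mean of 242.5 normalized counts in room air and 458.6 after smoke. Its log2 fold change of 0.92 was the largest of the 8 in size, but its SE was 0.44 and its adjusted p 0.177 in the authors' deposited table (DESeq2). The 95% interval of the ratio ran from 1.05 to 3.43, so the values leave a wide range of sizes. Mfge8 has a transcript of 2125 bases with 57.6% GC, and removal of the trend left its log2 fold change at 0.67 (adjusted p 0.629). Fibroblasts and endothelial cells also express Mfge8, Axl and Gas6. The 10 stromal and endothelial markers summed to 51.5 normalized counts in room air and 14.8 after smoke, with Col1a2 at 22.5 and 3.35 and Lepr at 0 in room air. In 8 of the 9 of these genes that were tested the log2 fold change was below 0, and none passed the threshold. The part of these cells in the levels of the members was not tested, and in such bulk cultures fewer cells of a type and less RNA per cell cannot be told apart.

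The TAM receptors differed widely in level. Axl (ENSMUSG00000002602.16, chr7:25757273-25788705, minus strand) had a mean of 2331 normalized counts in room air and 2611 after smoke, a log2 fold change of 0.16 (SE 0.20, adjusted p 0.692, DESeq2) in the authors' deposited table. Mertk (ENSMUSG00000014361.5, chr2:128698956-128802894, plus strand), the member of the family tied most closely to uptake by resting macrophages, stood at 401.3 and 348.1, a log2 fold change of -0.19 (SE 0.36, adjusted p 0.812). With the trend removed, Mertk stood at -0.099. The 95% interval of the ratio was 0.851 to 1.47 for Axl and 0.536 to 1.42 for Mertk. Tyro3 (ENSMUSG00000027298.17, chr2:119797733-119818104, plus strand) was near the limit of detection, at 0.890 normalized counts in room air and 2.85 after smoke. It carried no adjusted p, and its mean over the 24 libraries of the authors' fit, was 7.54. The largest such mean among genes left without an adjusted p was 8.52.

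The TAM ligands did not move past the threshold. Gas6 (ENSMUSG00000031451.6, chr8:13465374-13494490, minus strand) had a mean of 5952 normalized counts in room air and 5626 after smoke, and its ratio had a 95% interval of 0.739 to 1.21 in the authors' deposited table. Pros1 (ENSMUSG00000022912.8, chr16:62854307-62929346, plus strand) stood at 343.7 and 327.4, with an interval of 0.687 to 1.34. The log2 fold change of Gas6 was -0.082 (SE 0.18, adjusted p 0.852, DESeq2), and that of Pros1 was -0.061 (SE 0.25, adjusted p 0.924, DESeq2). With the trend removed, Gas6 stood at -0.28 (adjusted p 0.614) and Pros1 at 0.086 (adjusted p 0.974), a turn of sign for Pros1. Transcripts of both TAM ligands and of Axl and Mertk were thus present in both groups, with Gas6 the most abundant member per length in room air. Gas6 shares 3100 bases with Tmem255b on the opposite strand, which had no row in the table used here.

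Trem2 (ENSMUSG00000023992.14, chr17:48346401-48354147, plus strand) had a mean of 2400 normalized counts in room air and 2444 after smoke. Its log2 fold change was 0.026 (SE 0.17, adjusted p 0.958, DESeq2) in the authors' deposited table, and the 95% interval of the ratio was 0.804 to 1.29. With the trend removed it stood at -0.32 with the longest protein-coding transcript and at 0.064 with the longest transcript of any type. Tyrobp, its signalling adaptor, stood at 1305 and 1563, with a log2 fold change of 0.26 (SE 0.19, adjusted p 0.437) that turned to -0.075 with the trend removed. Timd4 (ENSMUSG00000055546.6, chr11:46810800-46844332, plus strand), a receptor of resident macrophages such as those of the peritoneum and liver, had no row. Of 9 other genes of resident macrophages, Vsig4 and Clec4f also had none, while Folr2 (1254 and 1064) and Cd5l (1236 and 1292) were abundant in both groups. The other 5 listed were low, from Cd163 at 13.7 in room air and 8.98 after smoke to Lyve1 at 0.329 and 0, with Marco, Spic and Vcam1 between them.

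Per kilobase of the longest protein-coding transcript, the members in room air covered a wide range. Gas6 and Trem2 were highest, at 2336 and 2206 normalized counts per kb, the 99.5th and 99.4th percentiles of the genes tested. Axl followed at 546.6 and Stab1 at 347.9, and Itgav (140.8), Mfge8 (114.1), Pros1 (104.1) and Mertk (93.3) lay close together. Tyro3 was last at 0.199 normalized counts per kb. After smoke the level per kb was 2247 for Trem2 and 2208 for Gas6, so that these neighbours changed places, and Mfge8 at 215.8 stood beside Stab1 at 228.4. The spread over libraries behind these levels is not known, so the order of close neighbours was not tested.

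**Figure D1:**
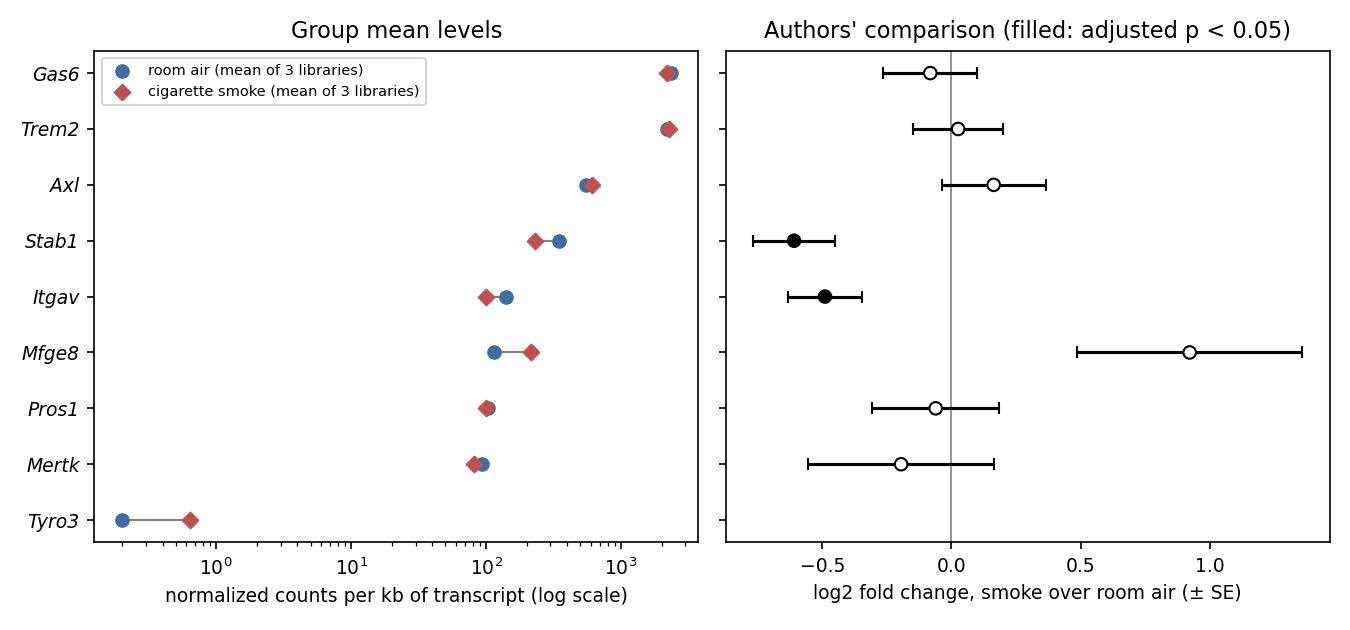
Left, mean normalized counts per kb of transcript (log axis) of the 9 listed members in room air (circles) and after cigarette smoke (diamonds), each the authors' mean of 3 libraries. Right, the log2 fold change with its SE in the authors' deposited table, without Tyro3, whose means were both under 3 counts; Stab1 at -0.61 and Itgav at -0.49 are the filled points, those with an adjusted p under 0.05.

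Splicing events were listed for 5 members, with a value in every library except for the Gas6 event. JuncBASE, a program that classifies splicing events from junction reads, listed 33 events in them: 25 in Stab1, 4 in Axl, 2 in Trem2 and 1 each in Gas6 and Mfge8. No member event passed an adjusted p of 0.05 in limma on the log2 odds of inclusion (lowest adjusted p 0.155), nor did any of all 10376 events (0%). At an unadjusted p under 0.05 there were 9 member events, all in Stab1, beside 10.8% of all events. The authors' deposited corrected p was at least 0.499 for every member event. Among 32 member events with 6 values, 11 reached p = 0.1 in an exact two-sided permutation test, which is the smallest value that 3 against 3 libraries allow. Of all 5933 events with 6 values, 23.1% reached it, and most of the member events are retained introns, a class in which 38.7% were lower in every smoke library.

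The sequences shown are those of measured events. They are the 2 cassette exons that give Axl and Mfge8 their isoforms, the splice sites of the Trem2 intron that the rMATS comparison called, and a pair of neighbouring acceptors in Stab1. All are in transcript sense, 5′ to 3′, from GENCODE M21 transcripts on GRCm38. In the exons, capitals mark the cassette exon and lower case 12 bases of each neighbouring exon. In the splice sites, capitals mark the donor GT, the acceptor AG or the pair of acceptor triplets.
Axl exon 10: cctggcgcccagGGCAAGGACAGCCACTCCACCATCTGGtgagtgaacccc
Mfge8 exon 4: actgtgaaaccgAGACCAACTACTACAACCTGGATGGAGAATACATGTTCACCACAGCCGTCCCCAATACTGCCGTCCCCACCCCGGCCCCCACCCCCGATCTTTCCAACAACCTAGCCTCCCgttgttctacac
Trem2 intron 1 annotated donor: ctgatcacagGTgggaccacaggagg
Trem2 intron 1 internal donor: ggacagcaagGTagggtgaaggaggg
Trem2 intron 1 acceptor: gctgtctcctctgcAGccctgtccca
Stab1 intron 53 tandem acceptors: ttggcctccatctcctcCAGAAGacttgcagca

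The Trem2 events lay in intron 1 (chr17:48346596-48348456, plus strand) of its 4 introns. JuncBASE recorded a junction from an internal GT, at chr17:48347560, to the annotated acceptor of exon 2; GENCODE M21 has no such junction, though a transcript of its set retains the whole intron. The level scored for this junction together with reads over the 964 bases between the donors was 10.9%, 14.4% and 11.6% in the room air libraries. Smoke replicates 1, 2 and 3 stood at 6.02%, 5.30% and 6.84%. All 3 smoke libraries were below all 3 room air libraries, as in 9.46% of all events other than retained introns and 38.7% of retained introns. The mean was 12.3% ± 1.84 (SD, n = 3) in room air and 6.05% ± 0.771 (SD, n = 3) after smoke, and the adjusted p in limma was 0.476. Reads from an unspliced intron 1 fall in the same 964 bases, so the level does not separate the internal donor from retention. It is not the share of transcripts that use this donor. The 897 bases downstream of the donor were scored as 100%, 93.4% and 92.5% retained in room air, and 100% leaves no share for the internal junction.

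The 897 bases downstream of the internal donor (chr17:48347560-48348456) were themselves scored as a retained intron. Retention was 100%, 93.4% and 92.5% in the room air libraries and 80.0%, 78.6% and 90.9% in the smoke libraries. These groups did not overlap either, as held for 38.7% of all retained introns in that direction, and the adjusted p in limma was 0.472. The authors' deposited rMATS table, which compares retained introns from junction and intron reads, listed the whole of intron 1 of 1861 bases. The mean level differed by 4.5 percentage points between its sample sets at a false discovery rate of 9.89e-10, where 14.5% of its introns were under 0.05. Its sets carry no group names, and a direction could not be read from it. Trem2 was the only one of 4 member introns in that table past the threshold. The Stab1 intron at chr14:31143015-31143117 had a false discovery rate of 0.197 and the introns near the 3′ end of Itgav, both starting at chr2:83803337, had rates of 0.922 and 1.

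The Axl events lay between exons 7 and 11 of its 20 exons. Exon 10 (chr7:25773099-25773125), a coding exon of 27 bases or 9 codons, was included at 82.9%, 74.1% and 82.1% in room air and at 77.3%, 76.3% and 76.9% after smoke. The groups overlapped, with means of 79.7% ± 4.88 (SD, n = 3) and 76.8% ± 0.480 (SD, n = 3), and the adjusted p in limma was 0.801. Exons 8 and 9, of 140 and 151 bases, were included together at 96.3%, 88.9% and 91.7% in room air and at 90.0%, 85.7% and 92.7% after smoke (limma adjusted p 0.677). Both forms of exon 10 were therefore present in every library, and in each the form with the exon was the more common.

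The Mfge8 event was exon 4 (chr7:79143278-79143388), a coding exon of 111 bases or 37 codons. It encodes the proline- and threonine-rich stretch that sets the long form of the protein apart from the short form. Inclusion was 79.0%, 79.3% and 73.7% in room air and 72.7%, 100% and 83.2% after smoke. The smoke libraries lay on both sides of the room air libraries, and the adjusted p in limma was 0.618. The means were 77.3% ± 3.15 (SD, n = 3) and 85.3% ± 13.8 (SD, n = 3), so the spread within the smoke group exceeded the difference.

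The Gas6 event was a retained intron whose acceptor GENCODE M21 does not hold (chr8:13477188-13478251, minus strand). Its level was 79.4%, 86.8% and 80.0% in room air. After smoke it was 81.8% and 75.0% in replicates 2 and 3, with no value in replicate 1. The adjusted p in limma was 0.799.

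**Figure D2:**
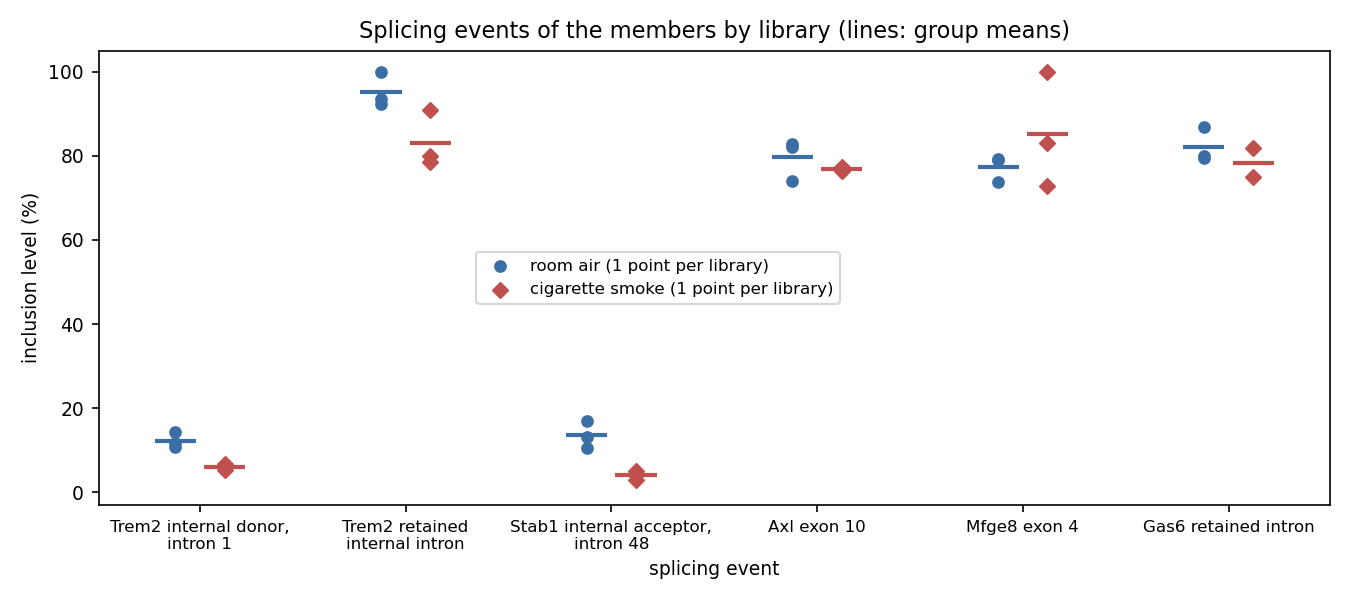
Inclusion level (%) of 6 splicing events in each library, room air as circles and cigarette smoke as diamonds, with the group means as lines. The smoke libraries lie below the room air libraries for the internal donor and the internal retained intron of Trem2 and for the internal acceptor of Stab1 intron 48, and the groups overlap for Axl exon 10, Mfge8 exon 4 and the Gas6 intron.

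Stab1 held 20 retained introns among the 68 introns of its full-length transcript, from 65 to 1139 bases long and spread from intron 3 to intron 66. In 19 of the 20 the mean level was lower after smoke, and in 8 all 3 smoke levels were below all 3 room air levels. Over all retained introns with 6 values these shares were 92.5% and 38.7% (0.251% for all smoke levels above, with none in Stab1), so the counts in Stab1 (40% for the second) lay near those of retained introns in general. The 8 became 13 without room air replicate 3 or without smoke replicate 3, where the share over all introns was 51.9% and 53.5%. The level over the 20 introns averaged 7.39%, 8.62% and 5.71% in the room air libraries, and after smoke it averaged 1.48%, 3.95% and 4.32%. Smoke minus room air was therefore -3.99 percentage points (room air 7.24% ± 1.46, smoke 3.25% ± 1.54, SD, n = 3 each), beside -4.23 over all 1992 retained introns with 6 values. Introns at exactly 0% numbered 15, 8 and 2 of 20 in smoke replicates 1, 2 and 3 and none in room air. Over all those introns, 63.3%, 46.5% and 11.4% were at 0% in the smoke libraries and between 2.71% and 12.9% in room air. Without smoke replicate 1, the library with the most missing values, 17 of the 20 introns were lower and the difference was -3.11 percentage points.

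The lowest p-value belonged to intron 6 of Stab1 (chr14:31162222-31162448, minus strand). Its retention was 6.98%, 6.86% and 3.00% in room air. No smoke library showed any (0% in each), with an adjusted p of 0.155 in limma. Intron 37 (chr14:31148419-31148939) likewise stood at 2.94%, 8.33% and 3.39% in room air and at 0% in every smoke library (limma adjusted p 0.177). The most retained intron in room air was intron 11 (chr14:31160631-31160796), at 16%, 14.3% and 8.93%, with 7.14%, 9.09% and 6.90% after smoke. In that intron the groups overlapped. The 8 introns without overlap were introns 6, 37, 42, 48, 51, 57, 58 and 64. Of these, intron 51 stood highest in room air, with a mean of 10.9% against 5.66% after smoke, followed by intron 48 (10.3% and 2.83%), intron 58 (9.34% and 3.77%) and intron 64 (8.37% and 4.49%). Introns 42 and 57 averaged 6.01% and 5.92% in room air and 0.457% and 1.41% after smoke. The groups overlapped in introns 3, 4, 5, 9, 11, 20, 21, 22, 45, 53, 65 and 66. Intron 9 was the one with a higher mean after smoke, 7.26% against 6.98%.

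Of the other Stab1 events, an acceptor inside intron 48 that GENCODE M21 does not hold (chr14:31145696-31145774) was scored at 10.6%, 17.0% and 13.2% in room air and at 5.00%, 2.94% and 4.23% after smoke. All smoke levels were below all room air levels, as in 9.46% of all events other than retained introns and 38.7% of retained introns, and the adjusted p in limma was 0.277. Retention of the same intron was 6.67%, 12.4% and 12.0% in room air and 0%, 2.94% and 5.56% after smoke, and both measures count reads from that intron. At the neighbouring acceptors of intron 53, junction reads used the CAG of the printed CAGAAG at 95.7%, 94.1% and 96.6% in room air and at 94.7%, 87.5% and 96.4% after smoke (limma adjusted p 0.714). That choice adds 3 bases to the exon, and both acceptors are annotated.

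**Figure D3:**
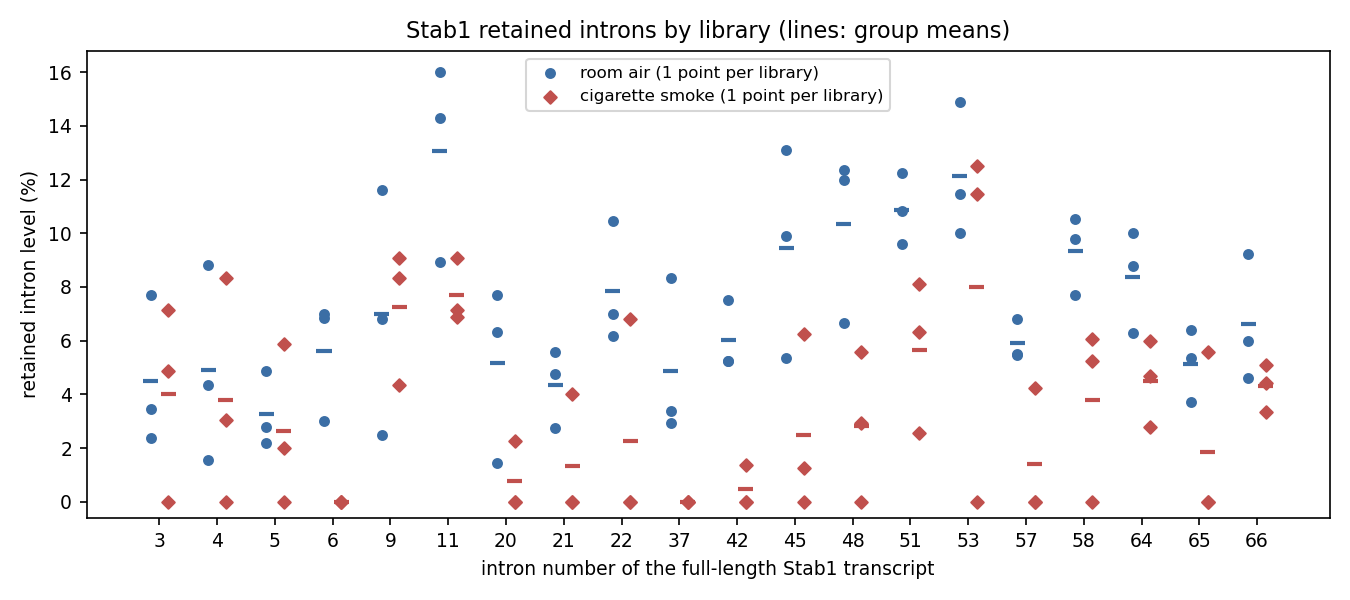
Level (%) of the 20 retained introns of Stab1, ordered by intron number, with 1 point per library, room air as circles and cigarette smoke as diamonds, and lines for the group means. The mean is lower after smoke in 19 of the 20, and 15, 8 and 2 introns are at 0% in smoke replicates 1, 2 and 3.

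The other genes of the uptake pathway were looked at in 7 lists, and 6 of their 97 tested genes (6.19%) passed the threshold in the authors' deposited table, beside 7.69% of all genes tested. Among 13 tested receptors, integrin partners and scavengers none passed an adjusted p of 0.05 (DESeq2), and 1, Itgb1, passed 0.1. At 0.1 the share was 12.8% over all genes tested and 10.3% over the 7 lists. By the average of both group means, by which abundance is ranked in these lists, the most abundant were Lrp1, at 9109 normalized counts in room air and 7638 after smoke, and Cd14, at 3027 and 3712. Of 12 other bridging molecules and ligands, 1 was higher. Mif, a cytokine, rose from 144.7 to 300.6 normalized counts (log2 fold change 1.07, SE 0.23, adjusted p 0.000585). The complement bridge C1q, made of 3 chains, did not pass the threshold in any chain: the log2 fold change was 0.41 for C1qa (SE 0.22), 0.30 for C1qb (SE 0.19) and 0.34 for C1qc (SE 0.19). With the trend in GC content and length removed these became 0.012, -0.041 and 0.0019, so that C1qb turned sign.

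The cytokine signalling inhibitors Socs1 and Socs3, which TAM receptors are known to induce, were the 2 of 10 tested genes in their list that rose. Socs3 went from 16.1 to 65.8 normalized counts (log2 fold change 2.06, SE 0.55, adjusted p 0.00734) and Socs1 from 2.88 to 9.84 (1.67, SE 0.57, adjusted p 0.0457), both in the authors' deposited table. Adam17, which sheds Mertk from the cell surface, stood at 1472 and 1344 normalized counts, and the largest means of that list were those of Lilrb4a and Sirpa, receptors that inhibit uptake or activation. Sirpa stood at 10845 normalized counts in room air and 10034 after smoke, and Lilrb4a at 13515 and 11170.

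Among 12 Trem2 signalling partners, Vav3 fell (516.4 to 384.6 normalized counts, log2 fold change -0.43, SE 0.15, adjusted p 0.0467). The most abundant of them, Syk and Inpp5d, did not pass: Syk had a log2 fold change of 0.0052 (SE 0.20) in the authors' deposited table and Inpp5d one of -0.047 (SE 0.094). In the engulfment machinery 1 of 18 tested genes rose. Rac2, a GTPase that drives actin assembly in blood cells, went from 1609 to 2076 (0.36, SE 0.12, adjusted p 0.0439), while its most abundant genes, Cdc42 and Dock2, stood at 3900 and 3149 in room air and at 4022 and 2658 after smoke.

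None of 17 genes of phagosome maturation and digestion passed the threshold, and none passed 0.1. Their most abundant genes, the protease gene Ctsd and the membrane protein gene Lamp1, stood at 21461 and 11519 normalized counts in room air and at 23313 and 11223 after smoke. Of 15 nuclear receptors, efflux pumps and transporters used after uptake, the glucose transporter gene Slc2a1 rose from 190.0 to 377.1 normalized counts (log2 fold change 1.00, SE 0.27, adjusted p 0.00897). The most abundant of that list were Ucp2, a mitochondrial carrier gene (2008 and 2243), and Abcg1, a cholesterol exporter (1785 and 2126), neither past the threshold. Abca1, also a cholesterol exporter, was above both in room air at 2196 and stood at 1476 after smoke, with a log2 fold change of -0.57 (SE 0.32), or -0.30 with the trend in GC content and length removed. The medians of the 7 lists lay between -0.15 and 0.25, beside -0.0029 over all genes. With the trend in GC content and length removed, none of the 6 genes kept an adjusted p under 0.05, with values from 0.0599 for Slc2a1 to 0.572 for Vav3. Over all genes tested, the share that passed fell from 7.69% to 1.27% with the same step. Slc2a1, Socs3 and Socs1 nevertheless stood at 0.90, 1.81 and 1.44 on the log2 scale after its removal, while Mif went to 0.61, Vav3 to -0.25 and Rac2 to 0.28.

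**Figure D4:**
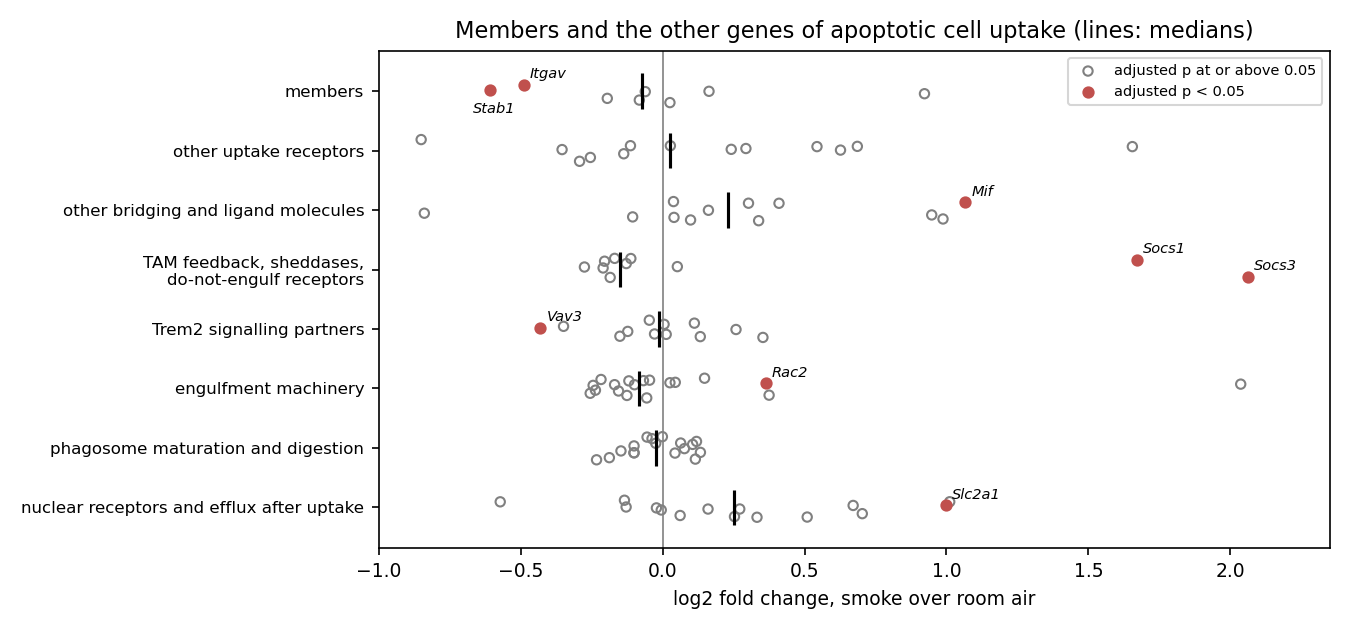
Log2 fold change of cigarette smoke over room air in the authors' deposited table for the tested genes of the members and of 7 other lists of apoptotic cell uptake, 1 point per gene, with the list medians as lines. Filled and named points have an adjusted p under 0.05: Stab1 and Itgav among the members, and Mif, Socs1, Socs3, Vav3, Rac2 and Slc2a1 in the other lists.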

How the data were processed

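The authors deposited a table of DESeq2 results holding, by its header, a mean signal per group and over 24 libraries, in counts divided by size factors. No counts per library were used here. The log2 fold changes, their standard errors, the Wald score and the p-values are the authors' own and rest on a fit to all 24 libraries, 18 of which are not analysed here. The authors also deposited percent inclusion levels per library (JuncBASE), with a score for the difference of medians, and an rMATS table whose 6 columns of per-sample values were not used, since its sample sets are not named. STAR, DESeq2, SAMtools 1.9, bedtools 2.27.1 and mm10 are named in the submitters' processing notes. No depth per library is known, and no interval from counts could be given.

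Members were matched by symbol. Positions and sequences came from GENCODE M21 on GRCm38, and events were assigned to a member when their exclusion junctions lay within the gene on its strand. Levels p were analysed as log2((p + 1)/(100 - p + 1)) with limma 3.58.1 in R 4.3.3, over all 10376 events with at least 2 values a group, with Benjamini-Hochberg adjustment. The trend in GC content and length of the longest protein-coding transcript was removed from the fold changes of 12071 genes by weighted splines with 4 degrees of freedom (statsmodels 0.14.6), and p-values were recomputed with the deposited standard errors. Both steps were run on simulated data with planted changes. For the trend step these data were the fitted trend itself plus noise, so they cannot show whether the trend is technical. Its planted changes were also larger than those of the 8 tested members. Intervals of ratios are the log2 fold change ± a normal 95% interval.

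The members and lists were chosen with earlier results of these data known. Named were all members, every list gene past the threshold and the 2 most abundant genes of each list, and a few background genes of their complexes, chosen after their values were seen. Alternatives were other thresholds, filters, centring, scales and pseudocounts, each library left out, and a replicate block. No stated pairing links replicate numbers across groups.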

Additional observations from a re-analysis of the deposited data

How the results depend on the processing

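With the trend in GC content and length removed, member calls went from 2 to 1 (Stab1 kept its call, Itgav lost it at a log2 fold change of -0.19, or -0.21 with the longest transcript of any type, which also gave 1 call), and the sign turned for Pros1 (0.086, or 0.053 with the longest transcript of any type) and for Trem2 (-0.32, but 0.064, with no turn, with the longest transcript of any type). Calls in the 5 other lists that had any went to 0, though the log2 fold changes of Slc2a1 (0.90), Socs3 (1.81) and Socs1 (1.44) stayed near their size. The share called over all genes tested went from 7.69% to 1.27%. Other adjustments, filters and centring left 2 member calls. At an adjusted p under 0.1 the uptake receptors had 1 call, the engulfment machinery 2 and the nuclear receptor list 3. No member intron of rMATS passed when a difference of 0.1 was also required (0 against 1). Member splicing events past the limma threshold numbered 2 with a pseudocount of 0.1 (Stab1 introns 6 and 37, beside 2.32% of all events) and 0 to 7 when each library was left out. The 7, beside 11.9% of all events, without cigarette smoke replicate 3, were Stab1 introns with both remaining smoke libraries at 0%. The Stab1 introns with all smoke levels below all room air levels numbered 8 to 13 of 20 when each library was left out, with 13 (65%) without room air replicate 3 or smoke replicate 3, beside 51.9% and 53.5% of all introns. With the replicate block, 0 member events passed (lowest adjusted p 0.609). The numbers were not treated as pairs, since no pairing is stated. Same-numbered libraries had deviations correlated at 0.018, -0.040 and -0.089, and room air replicate 2 with smoke replicate 3 at 0.127. Deviations from a mean of 3 libraries sum to 0, so these values cannot exclude pairing. Expression could not be tested without single libraries. The number of libraries and the unknown depth limit what could be detected.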
